A study of Mus musculus with 8 samples.

Results

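The large subunit of the mitochondrial ribosome is described here through its Mrpl genes in the neonatal mouse heart. Members were all protein-coding rows of the deposited expression table whose symbol starts with Mrpl followed by a digit, which gave 49 of the 54532 genes listed. RNA was measured in tissue of 8 hearts taken from littermates at postnatal day 4. The 4 control hearts were Mrps5 fl/+ and had no Cre. The 4 cHET hearts were Mrps5 fl/+;Myh6-Cre, so that Cre driven by the Myh6 promoter, which is active in cardiomyocytes, removes 1 allele of Mrps5 in those cells from late embryonic life. Mrps5 encodes a protein of the small mitoribosomal subunit. Both groups carried the floxed allele, and no group carried Cre alone, so an effect of Cre and of the lost allele cannot be told apart. The series calls the hearts biological replicates, and other cell types of the heart keep both Mrps5 alleles and add their RNA to each library. In bulk tissue, fewer cells of a type and less RNA per cell cannot be told apart.

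The mitoribosome translates the few proteins encoded in mitochondrial DNA, all of them subunits of oxidative phosphorylation. Its proteins are encoded in the nucleus, made in the cytosol and imported, whereas its RNAs come from the mitochondrial genome. The small subunit decodes the message. The large subunit holds the catalytic centre that joins amino acids, a stalk that recruits translation factors, a central protuberance and a tunnel through which the new chain leaves toward the inner membrane. Mitoribosomal proteins comprise a core with bacterial counterparts and a set acquired in mitochondria. The heart, with its high demand for oxidative phosphorylation, makes much use of this machinery.

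Libraries held 15490622 to 19234777 reads assigned to genes. Cardiomyocyte identity was plain in every library, with Tnnt2, the cardiac troponin T gene, at 876 to 1189 FPKM (the deposited unit, fragments scaled by gene length and by library total). Mrps5 itself stood at 11.6, 6.27, 10.1 and 5.15 FPKM in control and at 6.84, 7.12, 6.995 and 7.68 FPKM in cHET. The control libraries spanned both sides of the cHET range, and the difference in means did not pass an exact two-sided permutation test (p = 0.486, with 0.0286 the smallest value that 4 against 4 can give), so the whole-gene level gives no check of the labels. By Ddx3y, a Y-linked gene, 2 control hearts (1 and 3) and 1 cHET heart (1) were male. Those 2 controls had the higher Mrps5 values of their group, whereas the male cHET heart had the lowest of its group. With sex as a covariate in limma the log2 fold change of Mrps5 moved from -0.13 to -0.016 (-0.021 without control 1 and 2). The values of control 1 and control 2 stood apart from the rest in several markers of other cell types. Among 6 fat genes, 3 were higher in both of these libraries than in the other 6. The summed level of the fat genes ran from 158 to 228 FPKM in control and from 177 to 199 FPKM in cHET. Ucp1, the brown fat uncoupling protein, was at 17.8 and 16.7 FPKM in control 1 and 2, at 0.0387 and 0.149 FPKM in control 3 and 4, and between 0 and 6.56 FPKM in cHET. Markers of leukocytes (3 of 4 genes) and of the epicardium and mesothelium (3 of 4 genes) were likewise higher in both control 1 and control 2 than in the other libraries. The summed levels of the leukocyte genes spanned 49.1 to 109.8 FPKM in control and 36.3 to 60.1 FPKM in cHET, and those of the epicardial genes 34.95 to 76.1 FPKM and 15.03 to 33.1 FPKM. The sum of the endothelial markers went the other way, with 117 and 122 FPKM in control 1 and 2 and 145 to 183 FPKM in the other libraries. Of these 5 genes, 3 were lower in both, Cdh5 among them. Emcn was higher in both, at 11.7 and 15.6 FPKM against 8.68 to 10.955 FPKM elsewhere. The sum of 4 erythroid genes was 7303 FPKM in control 2 and 918 to 2293 FPKM elsewhere. That of 4 atrial genes was 240.5 FPKM in cHET 3 and 1459 to 5277 FPKM elsewhere. Sln, 1 of these atrial genes, was at 1.37 FPKM in cHET 3 and at 65.1 to 167 FPKM elsewhere. The share of atrial tissue thus differed in cHET 3 by these markers. The part of these cells in the results that follow was not tested. The members' counts and medians, those of each role, and the printed log2 fold changes of single genes that move by over 1.5 times are given with and without control 1 and 2. Genes described by group means alone are given with all 8 libraries, and their direction can rest on control 1 and 2.

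Of the 49 large subunit genes, 48 were expressed above a mean of 1 FPKM and entered the test, and they spanned a wide range of levels. Mrpl34, which encodes a small protein of the bacterial core, had the highest mean level at 140 FPKM. Mrpl54, Mrpl52 and Mrpl12 followed at 103, 88.0 and 81.2 FPKM. The lowest tested levels were those of Mrpl17 at 5.97 FPKM, Mrpl19 at 6.85 FPKM, Mrpl1 at 7.43 FPKM and Mrpl32 at 7.51 FPKM. The median over the 49 genes was 26.6 FPKM. Levels ran against the gene length used for scaling, which is the summed exon length of each gene and spans 607 bases (Mrpl34) to 8487 bases. Across the 49 genes Spearman's rho between length and level was -0.738, and the 14 genes of 4000 bases or more had a median of 9.27 FPKM against 37.5 FPKM for the others. This is a description across genes, and length is itself the divisor of FPKM. The lowest and highest libraries differed by 1.15-fold to 2.06-fold per gene. The coefficient of variation over the 8 libraries had a median of 13.8%, beside 14.8% over all genes tested. It was largest for Mrpl52 (26.8%), Mrpl41 (26.2%) and Mrpl30 (25.2%), and smallest for Mrpl50 (4.82%), Mrpl10 (5.43%) and Mrpl2 (5.54%).

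**Figure D1:**
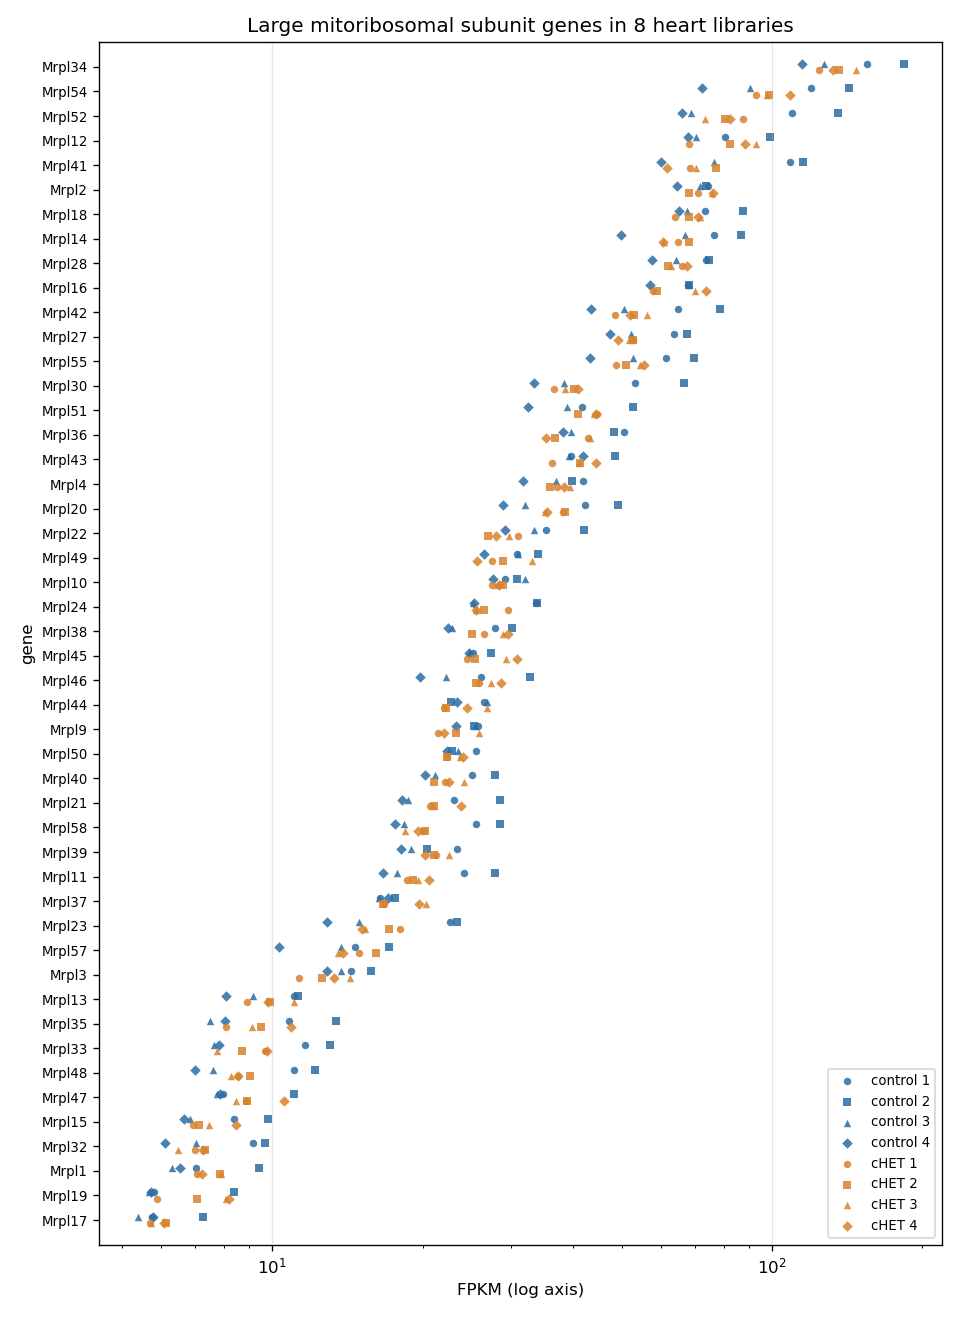
FPKM on a log axis for each of the 48 large subunit genes tested, ordered by mean level, with 1 point per library (control in blue, cHET in orange). Mrpl53, listed at 0, is not drawn, and the point for control 2 is the highest of the 8 in 37 of the 48 genes.

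Mrpl53 was listed at 0 FPKM in all 8 libraries. Its gene (chr6:83109040-83109939, plus strand) overlaps 2 others in the table, Gm42688 and Ccdc142os. In all, 26 of the 49 genes overlap another gene, 23 of them one on the opposite strand. The sources used here do not say whether strand was used in counting, so reads in the shared stretches cannot be assigned to 1 partner with certainty. Mrpl46, for example, overlaps the small subunit gene Mrps11 on the opposite strand. The reads behind a tested member ranged from 428 to 4688 per library. Processed pseudogenes of Mrpl48 and Mrpl23 are listed apart from the parent genes, and with such copies the split of reads is uncertain. Mrpl48-ps spanned 1.92 to 3.44 FPKM over the controls and 1.29 to 1.57 FPKM over the cHET hearts. Its groups thus did not overlap, as in 2% of all genes tested, and no gene of the whole table passed the test on the lower side. Mrpl23-ps1 spanned 1.28 to 4.37 FPKM and 0.596 to 2.08 FPKM. Control hearts had Mrpl48 itself at 9.47 ± 2.56 FPKM (SD, n = 4) and cHET hearts at 8.61 ± 0.318 FPKM, and Mrpl23 at 18.5 ± 5.35 FPKM and 16.4 ± 1.43 FPKM.

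The promoters of 43 of the 49 genes were found in the RefSeq promoter table for GRCm38.p6, which gives 250 bases before to 50 bases after each start. For 38 of them the start lay within 500 bases of the one in the deposited table. Factors long associated with nuclear genes for mitochondria were searched by their core letters on both strands. These were NRF1 (GCGCNTGCG), the ETS family that includes GABP (CCGGAAG), YY1 (AAGATGGCG) and, as a general GC box, SP1 (GGGCGG). The 250 bases before the start are shown for 6 genes at the ends of the co-variation, of the group comparison and of the motif counts, with motif matches in capitals and all else in lower case, 5′ to 3′ on the strand of the gene. Mrpl55, Mrpl42 and Mrpl11 are among the genes whose levels followed the other members most closely over the 8 libraries. Mrpl44 is the gene that followed them least, Mrpl22 had the smallest p between the groups, and Mrpl45 shared with Mrpl32 the highest number of NRF1 matches in the full window (3).
Mrpl55 (chr11:59202236-59202485, plus strand): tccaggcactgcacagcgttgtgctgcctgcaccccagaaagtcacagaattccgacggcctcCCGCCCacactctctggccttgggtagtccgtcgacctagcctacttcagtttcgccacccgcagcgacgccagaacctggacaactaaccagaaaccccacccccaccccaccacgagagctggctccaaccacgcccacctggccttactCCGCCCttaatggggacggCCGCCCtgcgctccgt
Mrpl42 (chr10:95501950-95502199, minus strand): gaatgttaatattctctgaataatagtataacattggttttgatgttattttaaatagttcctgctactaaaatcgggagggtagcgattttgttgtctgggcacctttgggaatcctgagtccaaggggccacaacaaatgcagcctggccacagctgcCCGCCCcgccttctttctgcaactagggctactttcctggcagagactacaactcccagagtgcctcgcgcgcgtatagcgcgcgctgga
Mrpl11 (chr19:4962056-4962305, plus strand): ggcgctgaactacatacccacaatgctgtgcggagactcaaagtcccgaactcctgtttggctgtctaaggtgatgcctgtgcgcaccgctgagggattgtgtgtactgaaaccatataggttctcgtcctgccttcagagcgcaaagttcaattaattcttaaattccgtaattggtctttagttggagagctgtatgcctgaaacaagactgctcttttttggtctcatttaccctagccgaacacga
Mrpl44 (chr1:79775768-79776017, plus strand): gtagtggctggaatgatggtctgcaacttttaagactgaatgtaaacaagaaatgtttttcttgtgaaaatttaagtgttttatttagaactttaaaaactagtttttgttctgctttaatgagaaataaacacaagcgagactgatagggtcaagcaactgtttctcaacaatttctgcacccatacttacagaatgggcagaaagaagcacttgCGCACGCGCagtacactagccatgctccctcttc
Mrpl22 (chr11:58171414-58171663, plus strand): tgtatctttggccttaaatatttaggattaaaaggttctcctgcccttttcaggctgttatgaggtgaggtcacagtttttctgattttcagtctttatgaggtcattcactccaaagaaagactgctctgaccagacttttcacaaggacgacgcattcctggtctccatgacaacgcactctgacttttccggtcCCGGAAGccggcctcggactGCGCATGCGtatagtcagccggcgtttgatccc
Mrpl45 (chr11:97315466-97315715, plus strand): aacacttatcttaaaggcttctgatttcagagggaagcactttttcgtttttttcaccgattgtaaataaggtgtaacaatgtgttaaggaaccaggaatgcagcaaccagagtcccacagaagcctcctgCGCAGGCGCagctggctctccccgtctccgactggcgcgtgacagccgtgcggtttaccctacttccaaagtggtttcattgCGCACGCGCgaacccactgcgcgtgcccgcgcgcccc

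The Mrpl55 promoter shown held 3 SP1 matches and that of Mrpl42 held 1, all on the opposite strand. No match to the 4 motifs was found in the Mrpl11 window. Mrpl44 held 1 NRF1 match, 34 bases before the start. In Mrpl22 an ETS match 53 bases before the start was followed by an NRF1 match 33 bases before it. Mrpl45 held 2 NRF1 matches, both on the opposite strand, 119 and 37 bases before the start.

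Over the full window, 13 of 43 member promoters (30.2%) held the NRF1 letters, beside 6.31% of all 32851 promoters in the table and 13.6% of the 11396 promoters of protein-coding genes tested here. For ETS the shares were 32.6% (14 of 43), 8.86% and 17.8%. For YY1 they were 9.30% (4 of 43), 1.40% and 3.12%, and in the 250 bases before the start alone the YY1 share of the members was 2.33%, with 1 promoter. The SP1 letters were in 39.5% of member promoters (17 of 43), beside 35.7% of all promoters and 64.0% of those of tested coding genes. At least 1 of NRF1, ETS or YY1 was present in 27 of 43 member promoters (62.8%), in 14.9% of all and in 30.4% of those of tested coding genes. These are shares of promoters with the letters and not of bound sites. The NRF1 letters were in 6 of the 10 promoters of the least co-varying members and in 1 of the 10 of the most co-varying ones. The median of a gene's mean correlation with the other members, described with the co-variation, was 0.548 for the 13 genes with the NRF1 letters and 0.701 for the 29 without. For ETS it went the other way, at 0.701 with the letters and 0.658 without. These correlations are those of the FPKM scale with all 8 libraries. The median among members there, 0.703, was 0.189 with each library scaled to the same sum and 0.275 without control 1 and 2. A link between the letters and the co-variation was not tested.

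Many of these genes also start close to another gene. A protein-coding partner on the opposite strand starts within 1000 bases of 13 of the 49 members (26.5%), beside 10.5% of the 11322 protein-coding genes tested. The gap was as short as 26 bases, between Mrpl54 and Apba3. The pairs did not rise and fall together as a rule. Over the 11 pairs with a measured partner, the median correlation of deviations from the group means was 0.119. It was 0.940 for Mrpl32 and Psma2, a proteasome subunit gene, and 0.687 for Mrpl30 and Mitd1. It was -0.559 for Mrpl50 and Zfp189 and -0.390 for Mrpl57 and Ska3, a spindle and kinetochore gene.

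No large subunit gene passed the test between cHET and control hearts. The comparison asked whether the transcripts of the partner subunit move when cardiomyocytes lose 1 allele of a small subunit gene. Values were compared on the log2(FPKM + 1) scale with limma over 13029 genes, with p-values adjusted by the Benjamini-Hochberg method, and fold changes on this scale understate those of low genes. Of the 48 members tested, 0 passed an adjusted p of 0.05 in either direction, beside 3 genes of the whole table higher in cHET (0.023%) and 0 lower (0%). An unadjusted p under 0.05 was reached by 0 of 48 members, beside 5.03% of all genes on the higher side and 3.92% on the lower. Limma's voom on reads rebuilt from the FPKM values also called 0 members in either direction. The control and cHET libraries overlapped for all 48 members, whereas 2.74% of all genes had every cHET library above every control library and 2% had every one below. The adjusted p of the members ran from 0.563 to 0.985. The median standard error of a member's log2 fold change was 0.12 (0.08 to 0.22), so small differences in single genes could not be resolved with 4 hearts a group. Larger estimates, such as -0.33 for Mrpl41, did not pass either.

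The point estimates lay mostly a little below 0 on the FPKM scale. Of the 48 members, 34 (70.8%) had a log2 fold change below 0, beside 47.9% of all genes, but 16 did so with TPM scaling (each library scaled to the same sum), 23 with the genes of the mitochondrial genome left out of the scaling and 14 with libraries weighted by their quality. The median over the members was -0.06, with a range of -0.33 to 0.17, and that of all genes 0.01. TPM scaling moved the median of all genes to 0.10 and that of the members to 0.04. Relative to the median of all genes, 14 of the 48 members lay above it with FPKM, with TPM and without the mitochondrial genome genes, and 32 with library weights. Leaving out control 1 and control 2 turned the members' median to 0.13, with 5 of 48 below 0. An unadjusted limma p under 0.05 was then reached by 11 of 48 members on the higher side and 0 on the lower. Over all 13029 genes, 687 reached it on the higher side and 423 on the lower. Of the members, 0 passed the adjusted threshold. Relative to the median of all genes, 41 of 48 members then lay above it. The change of scaling thus moved the median of all genes too, whereas leaving out these libraries moved the members against the other genes. Control 1 and 2 are the libraries in which 41 of the 48 members had their highest level. A rise of the members on leaving them out therefore follows from that choice, and no conclusion is drawn from it.

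**Figure D2:**
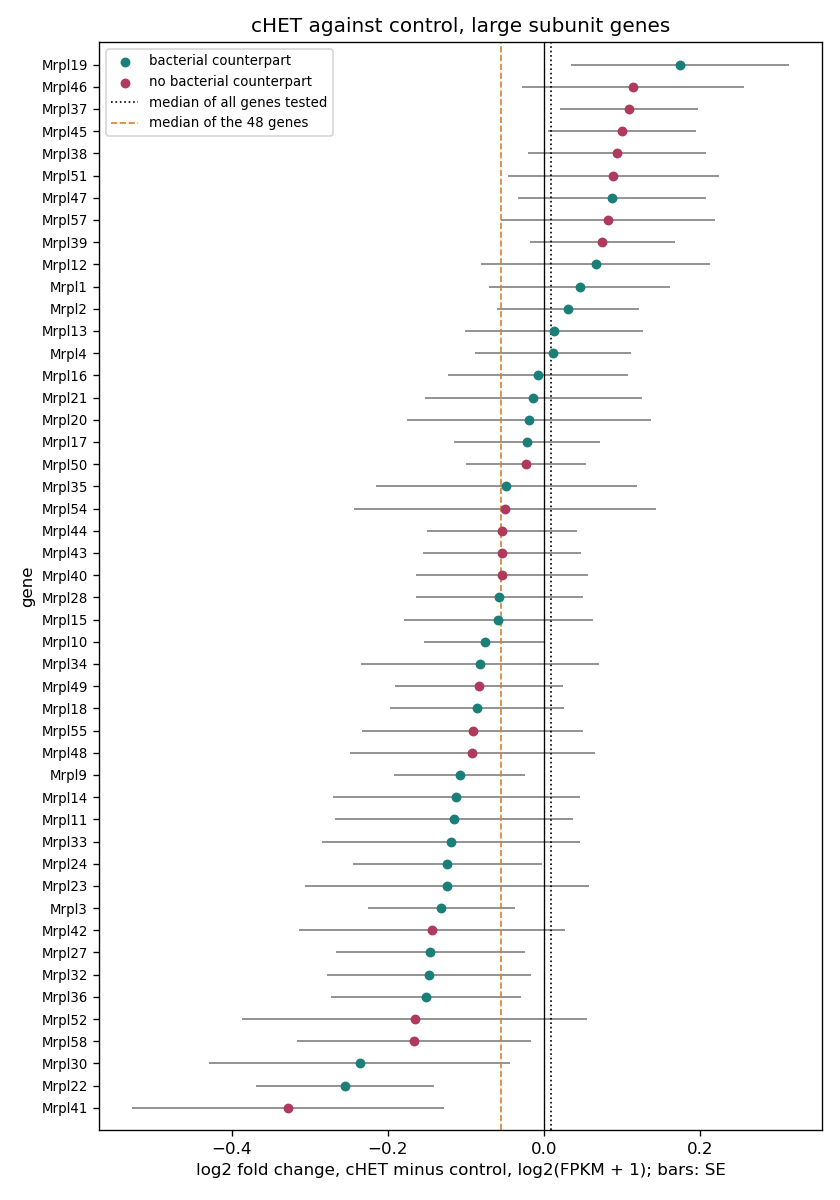
The log2 fold change (cHET minus control, log2(FPKM + 1)) of each of the 48 large subunit genes, with bars of 1 standard error and colours for genes with and without a bacterial counterpart. In this scaling 34 points lie left of 0 around a median of -0.06 (dashed), and no gene passed the test. The count left of 0 is 16 with TPM scaling, which moves the median of all genes too (14 members lie above the all-gene median with either scaling), and 5 without control 1 and 2.

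Among members with lower point estimates, Mrpl22 had the smallest p. Mrpl22 (chr11:58171661-58179565, plus strand) encodes a protein of the tunnel wall. Its levels were 35.4, 42.0, 33.3 and 29.2 FPKM in control and 31.0, 27.0, 29.7 and 28.0 FPKM in cHET. Control 1, 2 and 3 lay above all 4 cHET libraries, and control 4 lay within their range. The log2 fold change was -0.26 (SE 0.11, adjusted p = 0.563), and -0.11 without control 1 and 2. Mrpl41 (chr2:24974117-24975098, minus strand), which has no bacterial counterpart, had the lowest estimate, at -0.33 (SE 0.20, adjusted p = 0.646). It was at 108.6, 115.4, 76.4 and 60.1 FPKM in control and at 68.4, 77.3, 70.4 and 61.6 FPKM in cHET. Only control 1 and control 2 were above the cHET range, and without them the log2 fold change was 0.03. Mrpl36, Mrpl3 and Mrpl9 completed the 5 lowest p on this side, with log2 fold changes of -0.15, -0.13 and -0.11. Without control 1 and 2, Mrpl36 read 0.02 and Mrpl3 -0.05.

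Of the members with higher point estimates, Mrpl19 (chr6:81957851-81965958, minus strand) had the smallest p, with a log2 fold change of 0.17 (SE 0.14, adjusted p = 0.709). The Mrpl19 protein lies at the face toward the small subunit and takes part in a bridge between them. Its levels were 5.80, 8.38, 5.67 and 5.71 FPKM in control and 5.87, 7.06, 8.10 and 8.21 FPKM in cHET. Control 2 was the highest of all 8 libraries and the other 3 controls were the lowest, and without control 1 and 2 the log2 fold change was 0.30. The next smallest p were those of Mrpl37, Mrpl45, Mrpl38 and Mrpl39, with log2 fold changes of 0.11, 0.10, 0.09 and 0.08. Without control 1 and 2, Mrpl38 read 0.26 and Mrpl39 0.19. All 4 encode proteins without a bacterial counterpart. Mrpl37 was at 16.5, 17.6, 16.4 and 17.1 FPKM in control and at 16.7, 16.7, 20.3 and 19.7 FPKM in cHET. The higher estimate came from cHET 3 and 4, while cHET 1 and 2 lay within the control range.

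By structural role, no gene of any set passed the test, and the medians of the sets turned without control 1 and 2. They then read 0.17 for the stalk, 0.05 for the catalytic centre, 0.13 for the tunnel and 0.21 for the central protuberance. The stalk proteins recruit the translation factors, and 2 of their 3 genes were below 0, with a median of -0.08. Mrpl10, which anchors the stalk, had a mean of 29.9 ± 1.93 FPKM over the controls (SD, n = 4) and of 28.3 ± 0.586 FPKM over the cHET hearts, and Mrpl11, at the base of the stalk, at 21.6 ± 5.34 FPKM and 19.5 ± 0.863 FPKM. Mrpl12, whose protein forms the flexible stalk, was at 79.5 ± 14.1 FPKM and 82.9 ± 10.8 FPKM. The groups of all 3 genes overlapped. Around the catalytic centre, 3 of 4 genes were below 0 (median -0.07). Control and cHET means of Mrpl2 were 71.2 ± 4.57 and 72.8 ± 3.83 FPKM, and those of Mrpl16 were 65.3 ± 5.61 and 65.2 ± 8.06 FPKM. Mrpl3 and Mrpl27 had lower estimates with all libraries, with 14.2 ± 1.1999 FPKM against 12.9 ± 1.25 FPKM and 57.8 ± 9.51 FPKM against 51.6 ± 1.64 FPKM. Mrpl27 was above the cHET range (49.3 to 52.8 FPKM) only in control 1 and 2, at 63.7 and 67.8 FPKM.

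The tunnel and its exit, where the chain meets the inner membrane, were represented by 9 genes, 5 of them below 0 with a median of -0.02. Control and cHET means were 37.6 ± 4.37 and 37.7 ± 1.503 FPKM for Mrpl4, and 29.5 ± 4.89 and 26.8 ± 1.95 FPKM for Mrpl24. Mrpl45, whose protein anchors the ribosome at the membrane, was at 25.6 ± 1.28 FPKM and 27.6 ± 3.05 FPKM. Mrpl44, a mitochondrial addition near the exit, was at 26.5, 22.7, 26.9 and 23.4 FPKM in control and 22.1, 22.2, 26.9 and 24.6 FPKM in cHET. In Mrpl44, unlike most members, control 2 was the lowest of the controls and control 3 the highest. Of the 5 genes of the central protuberance, the crown of the large subunit, 3 were below 0 (median -0.05). Mrpl18 was at 73.4 ± 10.02 FPKM and 68.7 ± 3.49 FPKM, Mrpl38 at 25.9 ± 3.80 FPKM and 27.5 ± 2.11 FPKM, and Mrpl40 at 23.6 ± 3.57 FPKM and 22.5 ± 1.29 FPKM.

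A few other members have functions of their own. Mrpl58, a peptidyl-tRNA hydrolase built into the large subunit that can free stalled chains, had a control mean of 22.5 ± 5.41 FPKM and a cHET mean of 19.6 ± 0.788 FPKM. Mrpl14, which lies at the subunit interface, was at 70.0 ± 15.6 FPKM and 63.5 ± 3.66 FPKM. Mrpl32, whose precursor is matured by a mitochondrial protease before it joins the ribosome, was at 7.998 ± 1.6998 FPKM and 7.02 ± 0.394 FPKM. In all 3 the spread among the controls was larger than the gap between the group means. Genes with a bacterial counterpart were below 0 in 22 of 29 cases (median -0.08) and those without in 12 of 19 (median -0.05), and neither set had a gene past the test. Without control 1 and 2 the medians were 0.13 and 0.14, with 4 of 29 and 1 of 19 below 0.

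Among other genes of large subunit biology, no gene passed the test in the lists of 3 other large subunit proteins, 21 assembly factors and 12 regulators. Of the proteins that sit in the large subunit under other names, Gadd45gip1 had a log2 fold change of -0.08, Mrps30 of 0.08 and Mrps18a of 0.03 (-0.04, 0.25 and 0.10 without control 1 and 2). Among the assembly factors, 13 of 21 were below 0 with a median of -0.05, and 2 had every cHET library below every control library, as did 2% of all genes. Without control 1 and 2 the median was 0.02. Ngrn, a factor needed for the large ribosomal RNA, was at 16.3, 18.4, 16.3 and 16.2 FPKM in control and 11.9, 14.9, 14.5 and 13.6 FPKM in cHET, a log2 fold change of -0.28 (SE 0.09, adjusted p = 0.438). Mtg1, a GTPase of large subunit assembly, was at 8.73, 8.27, 6.26 and 6.58 FPKM in control and 5.91, 5.74, 5.97 and 6.11 FPKM in cHET, again at -0.28 (SE 0.11, adjusted p = 0.507), and at -0.10 (adjusted p = 0.773) without control 1 and 2. Neither passed the test, though their groups did not overlap. The regulators, among them Nrf1, Gabpa and the PGC-1 family, were above 0 in 9 of 12 cases with a median of 0.02, and in 5 of 12 with a median of -0.0026 without control 1 and 2. Pprc1 and Ppargc1b, both PGC-1 family coactivators, had the smallest p at log2 fold changes of 0.27 (adjusted p = 0.547) and 0.42 (adjusted p = 0.643), which became 0.14 and 0.02 without control 1 and 2. In the small subunit (Mrps genes other than Mrps30 and Mrps18a), 15 of 27 genes were below 0 with a median of -0.05 and 0 passed the test, and without control 1 and 2 the median was 0.12. The smallest p there were those of Mrps18b and Mrps25, at 0.24 (adjusted p = 0.574) and 0.25 (adjusted p = 0.583).

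The members differed far more between libraries of 1 group than between the groups. Of the 48 tested genes, 41 had their highest level in control 1 or control 2, 37 of them in control 2, and 30 had their lowest level in control 4. The mean deviation of the members from each gene's 8-library mean was 0.13, 0.28, -0.10 and -0.21 in control 1 to 4, on the log2(FPKM + 1) scale. In cHET 1 to 4 it was -0.07, -0.04, 0.0023 and 0.0058. The 4 cHET libraries thus lay together, between the high and the low controls. Control 1 and control 2 were both above all 4 cHET libraries for 25 of 48 members, beside 18.9% of all genes, and control 3 and 4 were both below all cHET libraries for 18 of 48, beside 10.1% of all genes. Both patterns held for 8 members. The 27 small subunit genes followed the same libraries, with mean deviations of 0.08, 0.25, -0.08 and -0.20 in control and of -0.06 to 0.03 in cHET.

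**Figure D3:**
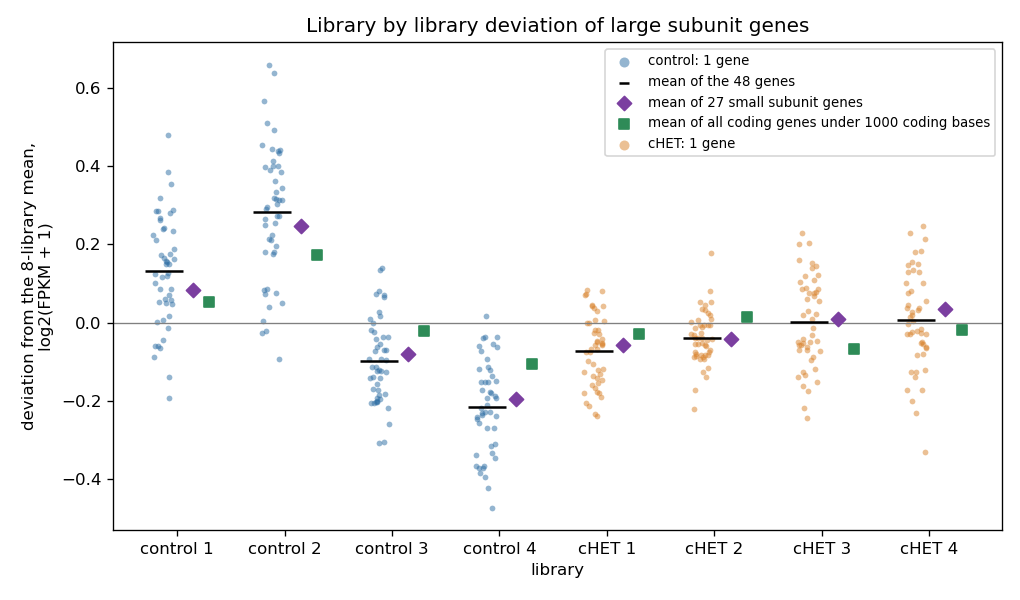
Deviation of each large subunit gene from its 8-library mean, in log2(FPKM + 1), with 1 point per gene in each of the 8 libraries, a bar at the mean of the 48 genes, and the means of the small subunit genes and of all coding genes under 1000 coding bases. Control 1 and 2 sit above 0 (0.13 and 0.28), control 4 sits lowest (-0.21) and the 4 cHET libraries lie between.

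As a share of a library's summed FPKM the members were steadier. They made up 0.436, 0.472, 0.436 and 0.418% in control and 0.421, 0.443, 0.464 and 0.463% in cHET. On this scale control 2 and cHET 3 and 4 were the highest and control 4 and cHET 1 the lowest. The sum of FPKM itself was 353291 in control 4 and 467217 in control 2, the lowest and the highest of the 8 libraries. It ran in the order of the members' mean deviation among the controls. The protein genes of the mitochondrial genome, 13 in number, had mean deviations of 0.52, 0.29, -0.18 and -0.25 in control 1 to 4, and of 0.24, -0.20, -0.09 and -0.33 in cHET 1 to 4. Among the controls they were high in the libraries in which the members were high, and in cHET 1 they were high while the members were not.

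Over the 8 libraries the large subunit genes rose and fell together. After removal of the group means, the median Pearson correlation over the 1128 pairs of members was 0.703, and 95.5% of pairs were above 0. The median was 0.004 over pairs of all coding genes tested and -0.03 between members and all coding genes. It was 0.535 within the small subunit and 0.630 between the subunits. A single component carried 67.1% of the members' variance. These are descriptions over 8 libraries that share depth and scaling, with no p. With TPM scaling the median among members was 0.189, below the 0.361 of all coding genes, and with mitochondrial genome genes left out of the scaling it was 0.208, beside 0.230. Without control 1 and 2 it was 0.275. The joint movement was thus strong on the FPKM scale and weak under both other scalings and without these libraries. Centring each library on its median over all genes tested gave 0.723.

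**Figure D4:**
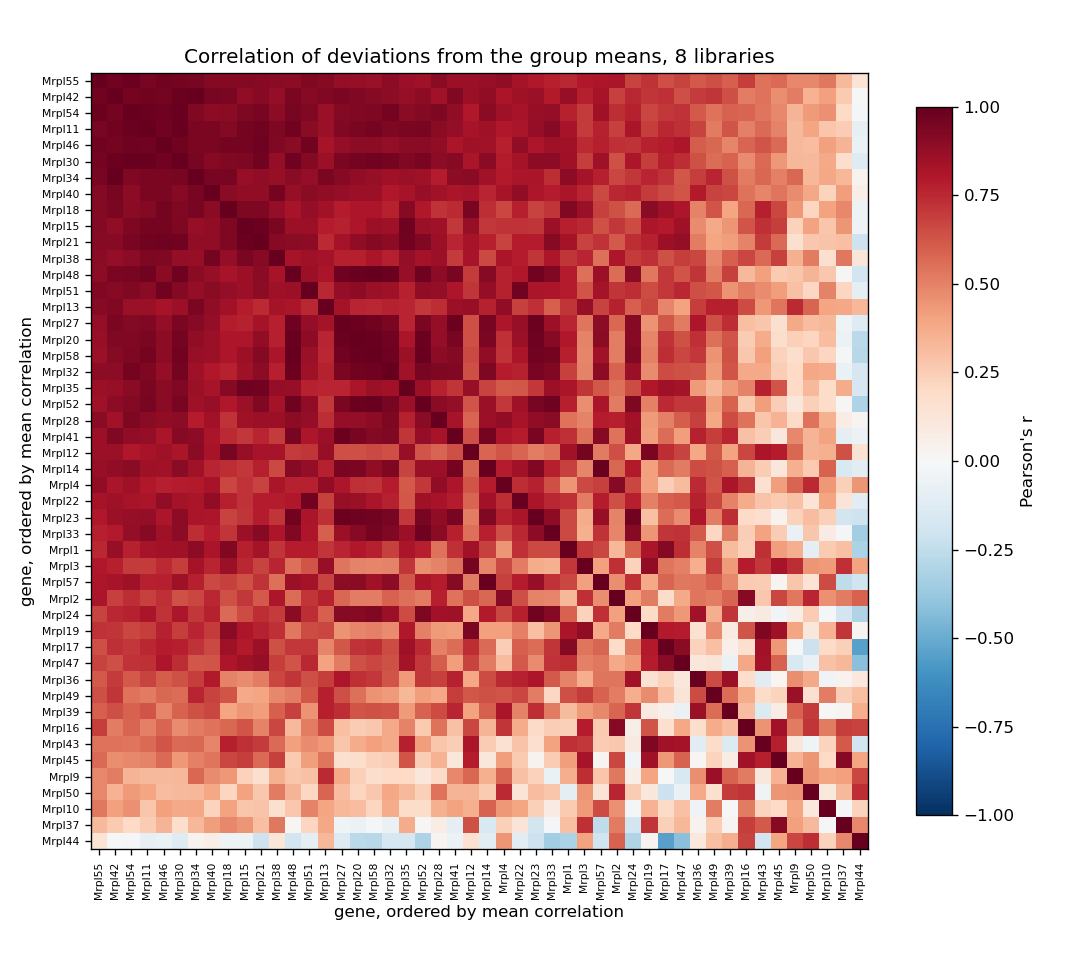
Pearson's r between each pair of the 48 tested large subunit genes over 8 libraries, from deviations of log2(FPKM + 1) from the group means, ordered by each gene's mean correlation. Red fills most of the map (95.5% of pairs above 0), and Mrpl37 and Mrpl44 at the end of the order are pale or blue against most others, on a scale where the median of 0.703 falls to 0.189 with TPM scaling.

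Mrpl55, Mrpl42 and Mrpl54 had the highest mean correlation with the other members, at 0.778, 0.778 and 0.772, with Mrpl11 at 0.772 next to them. Mrpl11 levels were 24.2, 27.9, 17.8 and 16.7 FPKM in control and 18.6, 19.1, 19.6 and 20.6 FPKM in cHET. Its 2 high and 2 low controls lay on either side of the cHET libraries, as in 8 of the 48 members. Mrpl44 (0.027), Mrpl37 (0.247) and Mrpl10 (0.310) had the lowest mean correlation. Mrpl10 was also among the members that varied least over the libraries. Outside the mitoribosome, the 5 genes of 6868 whose deviations lay closest to the members' mean were Vdac3 (r = 0.993), Rpl21 (0.991), Bola3 (0.990), Guk1 (0.990) and Tomm22 (0.990). They are the extremes of that many correlations over 8 libraries, ranked on the FPKM scale with all libraries alone. Whether they follow the members under other scalings or without control 1 and 2 was not tested. Vdac3 encodes a channel of the outer mitochondrial membrane, and Tomm22 a receptor for protein import. Rpl21 encodes a cytosolic ribosomal protein, Bola3 an iron-sulfur cluster factor and Guk1 guanylate kinase.

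The deviations of the members were related to coding length in several libraries. Mrpl proteins are small, and the longest coding sequence annotated for each gene in GENCODE M21 had a median of 589.5 bases (195 to 1269), beside 1377 for all coding genes. Of the 48 members 43 (against 32.7% of coding genes) were under 1000 bases. All coding genes under 1000 bases, 3696 in number, had mean deviations of 0.05, 0.17, -0.02 and -0.11 in control 1 to 4 and of -0.07 to 0.01 in cHET. In control 2 and control 4 Spearman's rho between deviation and coding length, over all coding genes, was -0.504 and 0.437, and over the members alone -0.554 and 0.503. Shorter genes thus stood higher in control 2 and lower in control 4, among the members as among all genes. Over the members, rho was also -0.471 in control 1. It was 0.474 and 0.405 in cHET 3 and 4, where the members' mean deviation was only 0.0023 and 0.0058. In control 3, cHET 1 and cHET 2 it lay between -0.0888 and 0.0684. The relation was thus not confined to libraries in which the members stood high or low. Within the members, coding length and coefficient of variation had a rho of -0.512. The part of gene length in the members' joint movement was not tested.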

How the data were processed

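Polyadenylated RNA of 8 hearts, 4 control and 4 cHET, was sequenced, and the groups were taken from the labels. The deposited table gives FPKM values, which the authors scaled by gene length (in bases, a deposited column) and by a total per library. The submitters' processing notes name, without roles, DESeq2 1.20.0, featureCounts 1.5.0-p3, HISAT2 2.0.5 and the build mm9. Starts and ends were those of GENCODE M21 on GRCm38 for 53585 (98.3%) of 54495 common identifiers (44 of the 49 members), so coordinates are given as the table has them and called GRCm38. Values times gene length were whole multiples of 1 read for 100% of values, within 0.05 reads, so reads could be rebuilt. No 2 libraries of a group were alike within sampling noise.

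Genes with a mean of at least 1 FPKM (13029) entered a linear model of log2(FPKM + 1) in limma 3.58.1 (R 4.3.3, moderated with a robust trend, no covariate, two-sided), with Benjamini-Hochberg adjustment over all genes and a threshold of 0.05. The fit was tested on simulated reads of genes drawn independently, without shifts shared within a library. This checks the working of the fit and not the comparison of these hearts. Correlations and promoter motifs were computed in Python 3.11.15 and are descriptions. Alternatives were another pseudocount, filters, scalings, variance models, library weights, voom, a replicate block, sex, coding genes alone and libraries left out.

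The members, the lists of related genes, the cell markers and the tests were chosen with earlier results of these data known. All members are accounted for. Described with values are the 5 with the smallest p in each direction, the 4 highest and 4 lowest by level, the 3 most and 3 least correlated, and landmarks of structural role. Of the lists of related genes, those whose groups did not overlap and the 2 with the smallest p are named. The landmark, role and counterpart lists come from general knowledge of the mitoribosome. Other members were named after their values were seen. P-values set the difference between group means against the spread between these hearts, which limma moderates over genes.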

Additional observations from a re-analysis of the deposited data

Results flagged for a closer look

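Dixon's gap test was applied to 100 groups of 4 libraries. These were the 48 tested members, the members' mean deviation and Mrps5, each in control and in cHET. In 4 of the 100, 1 library lay further from the others than the critical value allows, and chance gives about 1 in 20. Mrpl16 was at 56.9 FPKM in control 4, below 67.8 to 68.4 FPKM in the other controls. Mrpl19 was at 8.38 FPKM in control 2, against 5.67 to 5.80 FPKM. Mrpl47 was at 11.1 FPKM in the same library, against 7.76 to 7.95 FPKM. Mrpl21 was at 23.9 FPKM in cHET 4, against 20.7 to 21.1 FPKM in the other cHET hearts.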

How the results depend on the processing

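No large subunit gene passed the adjusted threshold under any of the 22 alternatives, where the lowest adjusted p of a member (limma, Benjamini-Hochberg) was 0.266, for Mrpl41 without control 4. The members below 0 (34 of 48) became 16 with TPM scaling, 14 with library weights, 17 without control 2, 5 without control 1 and 2 and 8 without these and cHET 2, and ran from 17 to 40 over single hearts left out. Their median log2 fold change (-0.06) was 0.13 without control 1 and 2, 0.15 without these and cHET 2, and -0.13 to 0.02 over single hearts left out. The median correlation among members (0.703) was 0.189 with TPM, 0.208 with mitochondrial genome genes left out of the scaling, 0.275 without control 1 and 2, and 0.596 to 0.750 over single hearts left out. The YY1 share was 2.33% in the 250 bases before the start. Mrpl41 read 0.0299 without control 1 and 2, and Mrpl36 read 0.0196, or 0.052 without cHET 2 as well. Mrps5 read 0.0412 without control 1, against -0.13 with it, and ran from -0.30 to 0.0412. Over the whole table, 3 genes called higher became 1 with a minimum of 5 FPKM, 8 with library weights, 1 without control 1 and 2 and cHET 2, and 2 to 3 over single hearts left out, and library weights called 3 lower instead of 0. With the replicate block, 1 gene was called higher and 0 members were called. Same-numbered hearts had correlations of 0.286, 0.266, 0.052 and 0.057, and control 4 lay closest to cHET 3 (0.344), so the numbers were not taken as pairs. The cause of these shifts was not tested. The other 415 values computed stayed within the limits set for each kind of value, which were not all a spread between hearts. Some of them still changed direction. The members' median log2 fold change was 0.04 with TPM scaling, 0.05 with library weights and 0.02 without control 2. With mitochondrial genome genes left out of the scaling it was 0.007, and 23 members lay below 0. With 4 hearts a group and a median standard error of 0.12, estimates well above this size in 1 gene also failed the test. Ngrn, at -0.28 with a standard error of 0.09, had an adjusted p of 0.438 (limma, Benjamini-Hochberg).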
